A study of Populus davidiana with 6 samples.

Results

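In leaves of the aspen Populus davidiana, 119 of 40537 listed genes met a rule for lower transcript levels after brief air drying. In 7 of the 119 at least 1 control was itself listed at 0, while 111 were above 0 in all 6 libraries. The genes were chosen from the measured values themselves, so their fall is given as a description, without a test. For genes above 0 it follows from the choice that the groups of libraries do not overlap and that every air-dried library is low. A gene was kept if its locus spanned at least 300 bp, its control mean was at least 10 FPKM (fragments scaled by transcript length and by mapped fragments), and its highest air-dried value was at most 50% of its lowest control value. The span and level minimums were met by 12225 genes, of which the 119 are 0.973%.

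Leaves of an uprooted plant go on losing water that the roots no longer replace. As general background, drying plants accumulate the hormone abscisic acid, close their stomata, raise protective proteins and lower many transcripts of growth, cell wall and photosynthesis genes. Which of these functions the genes described here serve is not known from the data, since the gene name column of the deposited files was empty and no table used here paired accessions with names. Genes are therefore given by position, with 2 of them also by accession, and no gene sequence is shown.

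There were 6 libraries of the cultivar Seogwang9, recorded by the submitters as drought tolerant, at the seedling stage. All plants were grown from internodes on Murashige and Skoog (MS) medium with sucrose and naphthalene acetic acid, at an age of about 6 weeks. The 3 air-dried libraries came from plants that were pulled out of the medium, rinsed with sterile water and then exposed to open air for some 10 minutes, and the 3 control libraries from plants without that treatment. The labels do not say whether control plants were also pulled out and rinsed, or whether each leaf sample was taken from its own plant. The p-values below therefore measure only the spread between these libraries, which may be technical. Leaf marker genes could not be checked without gene names. In bulk leaf RNA, fewer cells of a type and less RNA per cell cannot be told apart.

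Earlier results of these data had shown the libraries to form 2 sets that each hold both groups: set A with air-dried 1 and controls 1 and 2, and set B with air-dried 2, air-dried 3 and control 3. Rank correlations of transcript levels were 0.817 to 0.863 within sets and 0.733 to 0.773 across sets. The labels name no batch. Changes within each set are given below for the group as a whole and for genes whose sets differed most.

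A part of the genes cannot be described as reduced by 50%. Of the 119 genes, 8 were listed at 0 in all 3 air-dried libraries, and 7 of these were also listed at 0 in at least 1 control, so that the comparison set 0 against 0. Such a zero can be a failed estimate of the authors' software, and no fold is given. None of the 8 had a transcript marked known in the files. A locus on chromosome 6 (1535261 to 1546977) and one on chromosome 18 (7843159 to 7844414) were each listed at 0 in the 3 air-dried libraries and at 0, 0 and 19684 FPKM in controls 1, 2 and 3, the same value at both. On chromosome 6 a further locus (1157541 to 1334375) had controls of 0, 212 and 82.9 FPKM. The other 4 of the 7, on chromosomes 1 (33908267 to 33940973), 3 (19929529 to 19935440), 10 (12773143 to 12774110) and 17 (4581037 to 4588370), had controls between 0 and 90.4 FPKM. In these 7 loci the controls themselves were partly at 0. The eighth (chromosome 3, 3506938 to 3507882) had 0 FPKM in each air-dried library and 99.5, 199 and 389 FPKM in the controls. Of the 8, 6 overlapped another listed gene and 4 lay wholly inside one, which was not counted over all genes. The other 111 genes were above 0 in all 6 libraries, and the rest of the text is about these 111 unless all 119 are named. A known transcript was listed for 109 of them, but it did not always carry the level. On known transcripts alone, 76 of the 119 met the rule. Of the 67 members with at least 2 listed transcripts, 24 had a leading transcript in controls that was not marked known.

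The 111 genes kept a median of 35.0% of their control level, with a range from 4.70% to 46.7%. Below 10% were 5 genes (4.50%), from 10% to under 20% were 10 (9.01%), from 20% to under 30% were 23 (20.7%), from 30% to under 40% were 40 (36.0%) and from 40% upward were 33 (29.7%). The median of the air-dried means was 7.44 FPKM, against 22.7 FPKM for the control means. After drying, 68 genes had a mean under 10 FPKM and 33 had one under 5 FPKM, while 43 remained at 10 FPKM or more. Among the 22356 genes tested, whose mean over all libraries reached 1 FPKM, their median rank moved to the 35.0th percentile in air-dried leaves, against the 68.0th percentile in controls. Summed over the 111 genes, the level was 1851, 1838 and 1747 FPKM in air-dried libraries 1, 2 and 3, against 6037, 6108 and 5422 FPKM in controls 1, 2 and 3. The summed mean after drying was thus 30.9% of that in controls, 1812 ± 56.3 against 5856 ± 377 FPKM (SD, n = 3 each).

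**Figure D1:**
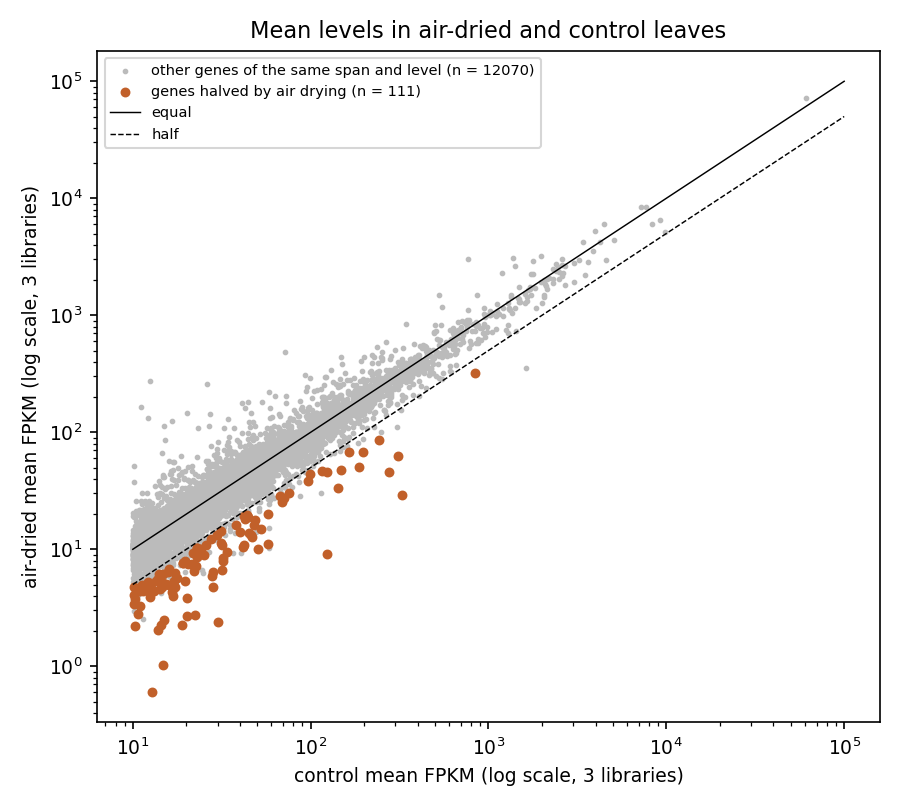
Air-dried mean FPKM (vertical, log scale) against control mean FPKM (horizontal, log scale), 3 libraries each. Orange points are the 111 genes above 0 in all libraries and grey points the 12070 other genes of the same span and level; the solid line marks equal levels and the dashed line 50%. The orange points lie below the dashed line from control means near 10 FPKM up to 839 FPKM.

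In limma, on log2(FPKM + 1) and adjusted over all genes tested, 7.44% of genes were called lower in air-dried leaves and 5.60% higher. Of the 119 genes 112 were called lower, the 111 above 0 and the locus on chromosome 3. The choice of the genes used this contrast, so nothing is read from that count. Their log2 fold changes on this scale ran from -3.64 to -0.96 with a median of -1.42 over the 111, while the median over all genes tested was 0.0080. Standard errors were between 0.059 and 0.50.

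The largest fitted fall among the 111 belonged to POPTR_0006s06430, a gene with 1 known transcript on the plus strand of chromosome 6 (4590788 to 4592356). It had 8.22, 10.9 and 8.21 FPKM in the air-dried libraries and 130.5, 115 and 127 FPKM in the controls. The controls lay close together, and air-dried 2 was the highest of the air-dried libraries. The mean was 9.10 ± 1.53 FPKM after drying and 124 ± 8.27 FPKM in controls (SD, n = 3 each), which left 7.33% of the control level, a log2 fold change of -3.64 (SE 0.12). Within set A the log2 change was -3.74 and within set B -3.62.

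By the share of the level left, a short gene on chromosome 17 (5806647 to 5807434, plus strand, 788 bp) came first. It had 0.266, 0.723 and 0.824 FPKM in the air-dried libraries and 13.8, 15.7 and 9.10 FPKM in the controls, so that 4.70% was left. This gene lies wholly inside another listed gene on the same strand (5628345 to 5844565), which went the other way. The enclosing gene had 4.16, 6.55 and 6.27 FPKM in air-dried leaves and 2.21, 1.18 and 1.78 FPKM in controls, a log2 fold change of 1.29 (SE 0.21, limma adjusted p = 0.01309). The labels do not say how reads were divided between overlapping genes. On chromosome 2 (22447102 to 22447777, plus strand) a gene of 676 bp had 0.647, 1.62 and 0.791 FPKM after drying and 12.02, 8.35 and 24.0 FPKM in controls, so that 6.87% was left. Its controls differed widely among themselves, and control 3 was the highest. Its log2 fold change was -2.74 in set A and -3.53 in set B.

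A gene of 675 bp on chromosome 13 (14365033 to 14365707, plus strand) combined a deep fall with a high level. It had 36.9, 25.8 and 24.2 FPKM in the air-dried libraries and 375.7, 372 and 233 FPKM in the controls. Control 3 was clearly the lowest of the controls, and 8.86% of the control mean was left. On chromosome 16 (12878815 to 12886298, plus strand), a locus with 4 listed transcripts that joins 2 known accessions had 3.32, 2.49 and 1.38 FPKM after drying and 33.0, 33.3 and 24.2 FPKM in controls, which left 7.95%. A gene on chromosome 10 (1830570 to 1832480, minus strand) had 2.84, 2.61 and 1.36 FPKM after drying and 24.3, 20.6 and 11.9 FPKM in controls, which left 11.99%. In the genes on chromosomes 13, 16 and 10 control 3 was the lowest control and air-dried 3 the lowest air-dried library.

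Even replicates marked several others of the 12 deepest falls. On chromosome 1 (5049250 to 5051819, plus strand) the levels were 2.99, 2.72 and 2.48 FPKM in air-dried leaves and 24.4, 22.8 and 19.6 FPKM in controls, with 12.3% left. On chromosome 4 (20671522 to 20673146, minus strand) they were 2.08, 2.13 and 2.57 FPKM after drying and 14.1, 14.8 and 14.4 FPKM in controls, with 15.7% left. The control libraries of that gene differed by less than 1 FPKM. On chromosome 3 (7861820 to 7862559, plus strand) a gene of 740 bp had 45.8, 50.05 and 42.6 FPKM after drying and 306, 255 and 263 FPKM in controls, which left 16.8%.

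Chromosome 15 held 3 of the 12. The gene at 9554833 to 9556298 (plus strand) had 3.41, 2.57 and 2.11 FPKM after drying and 19.1, 25.6 and 15.8 FPKM in controls, with 13.4% left. The gene at 13756874 to 13760402 (minus strand) had 2.55, 1.74 and 1.79 FPKM after drying and 12.3, 17.1 and 12.2 FPKM in controls, with 14.6% left. The gene at 14181402 to 14182175 (minus strand) had 2.90, 2.42 and 2.08 FPKM after drying and 17.8, 17.7 and 9.58 FPKM in controls, with 16.4% left. The spread among the controls was wide, with control 3 the lowest in each gene. In the genes at 9554833 and 13756874 the known transcript had a mean under 1 FPKM, so nearly all of the level came from other listed transcripts.

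**Figure D2:**
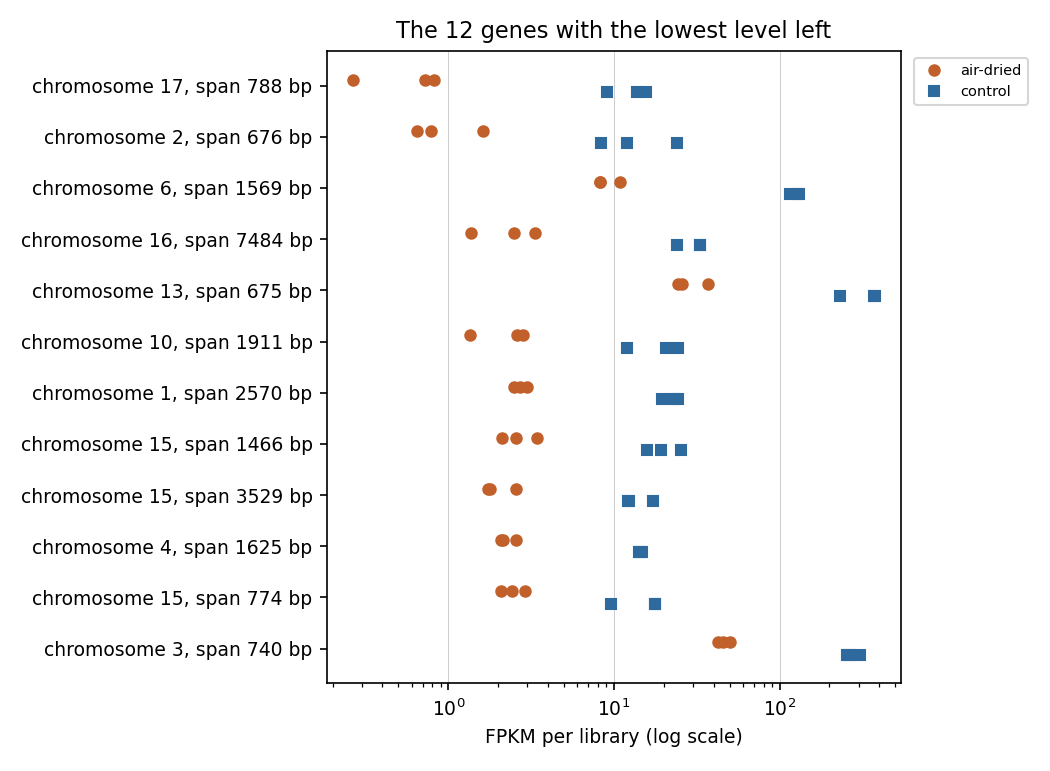
FPKM of each library (horizontal, log scale) for the 12 genes with the lowest share of the control level left, in order from the lowest share at the top. Circles are the 3 air-dried libraries and squares the 3 controls, and points may overlap; by the choice of the genes every circle lies left of every square of its row. Levels range from 0.266 FPKM in an air-dried library to 375.7 FPKM in a control.

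Abundant transcripts were part of the group. Control means of at least 100 FPKM were found in 13 of the 111 genes, and air-dried means of at least 100 FPKM in 1. That gene, POPTR_0007s14570 on the plus strand of chromosome 7 (14318437 to 14320123), had 345, 313 and 312 FPKM in the air-dried libraries and 856, 876 and 784 FPKM in the controls. It remained the most abundant of the 111 with 323 ± 18.6 FPKM after drying and 839 ± 48.4 FPKM in controls (SD, n = 3 each), so that 38.5% was left. By itself it made up 14.3% of the summed control level of the 111 genes, and the 10 highest genes together made up 48.4%.

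Further genes among the 10 highest kept between 20.3% and 41.5% of their control level, apart from the gene of 675 bp on chromosome 13 and the gene of 740 bp on chromosome 3 given above. On chromosome 19 (416941 to 423727, plus strand) the levels were 61.9, 78.2 and 49.0 FPKM after drying and 338, 385 and 207 FPKM in controls, with 20.3% left. On chromosome 3 (9484860 to 9486042, minus strand) they were 92.4, 95.4 and 72.2 FPKM after drying and 240, 250 and 241 FPKM in controls, with 35.5% left. The controls of the chromosome 3 gene were nearly equal, those of the chromosome 19 gene were not. A gene on scaffold 1776 (1108 to 3414, plus strand) had 55.4, 52.4 and 45.2 FPKM after drying and 194, 208 and 163 FPKM in controls, with 27.1% left.

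On chromosome 13 (14956650 to 14959345, minus strand) a second gene had 38.3, 30.4 and 31.0 FPKM after drying and 157, 153 and 119 FPKM in controls, with 23.2% left. On chromosome 6 (581805 to 591580, plus strand) a locus that joins 2 known accessions had 67.2, 74.8 and 62.7 FPKM after drying and 165, 169 and 160 FPKM in controls, with 41.5% left. A gene on chromosome 4 (17726871 to 17729169, plus strand) had 72.0, 69.9 and 61.1 FPKM after drying and 187, 218 and 188 FPKM in controls, with 34.3% left. In each of these genes the air-dried libraries lay close together. In the locus on chromosome 6 and the gene on chromosome 4, the known transcripts together had a mean under 1 FPKM. Nearly all of their level came from other listed transcripts.

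**Figure D3:**
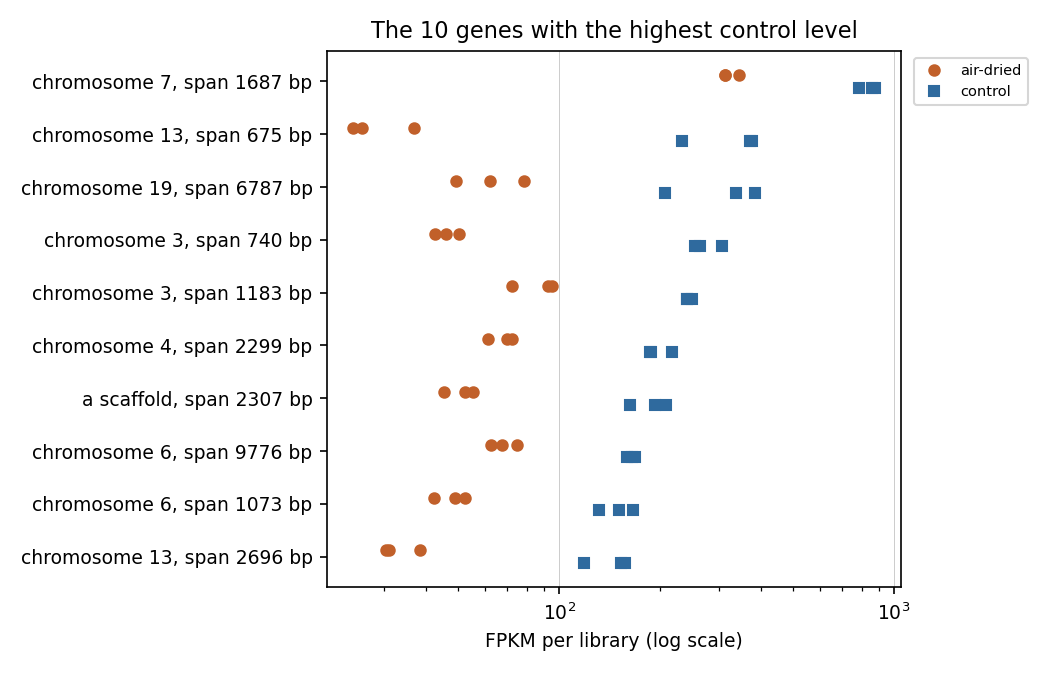
FPKM of each library (horizontal, log scale) for the 10 genes with the highest control mean, highest at the top. Circles are the 3 air-dried libraries and squares the 3 controls, and points may overlap; the circles lie left of the squares by the choice of the genes, from 24.2 FPKM for the lowest circle to 876 FPKM for the highest square.

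At the limit of the choice, neighbouring genes were hardly different. Just inside it, the highest air-dried value was 0.498 of the lowest control value for a gene on chromosome 10 (14022475 to 14025231), 0.497 for one on chromosome 2 (15758530 to 15761504) and 0.495 for one on chromosome 19 (9606703 to 9614167). Just outside it, the ratio was 0.501 for a gene on chromosome 4 (3759261 to 3763371), 0.503 for one on chromosome 8 (468218 to 471629) and 0.504 for one on chromosome 15 (14690378 to 14692263). These 3 genes kept 40.7%, 45.1% and 41.9% of their control mean, and the 3 inside kept 43.4%, 44.5% and 44.8%. Judged by means instead of by extreme values, 257 of the 12181 genes above 0 in all libraries kept at most 50%, which is 2.11%.

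By median, controls varied less in these genes than over genes of the same span and level, and air-dried libraries slightly more. The median coefficient of variation was 10.2% among air-dried libraries and 6.79% among controls, against 8.90% and 8.09% over the 12181 genes of the same span and level. The choice favours even groups, so these values describe the genes and are no test. The median level relative to the control mean was 33.2% in air-dried 1, 35.4% in air-dried 2 and 34.9% in air-dried 3. Air-dried 1 was the lowest air-dried library in 31 genes (27.9%), air-dried 2 in 40 (36.0%) and air-dried 3 in 40 (36.0%). Over the 12181 genes these shares were 30.3%, 41.6% and 28.1%. Control 3 was the lowest control in 49 genes (44.1%), against 35.0% of the 12181 genes. It was under 80% of both other controls in 10 of the 111 genes (9.01%), against 9.99% of the 12181.

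The size of the fall can be given within each of the 2 library sets, which have no library in common. The median log2 fold change was -1.46 in set A and -1.35 in set B. That each gene is lower in both sets follows from the choice of the genes. The changes in the sets correlated across the 111 genes with a Pearson r of 0.89 and a Spearman rho of 0.82. Over the 12181 genes of the same span and level r was 0.76 and rho 0.64. Genes are not independent replicates, the 111 were chosen with both sets in view, and each set has 1 library in 1 of the groups. The change was larger in set A in 61 genes and larger in set B in the other 50. The sets differed by over 0.5 in 8 genes, 7 with the larger fall in set A. Among them was the gene on chromosome 19 (416941 to 423727), with a log2 change of -2.52 in set A and -1.72 in set B. The short gene on chromosome 17 (5806647 to 5807434) was at -3.63 in set A and -2.51 in set B.

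**Figure D4:**
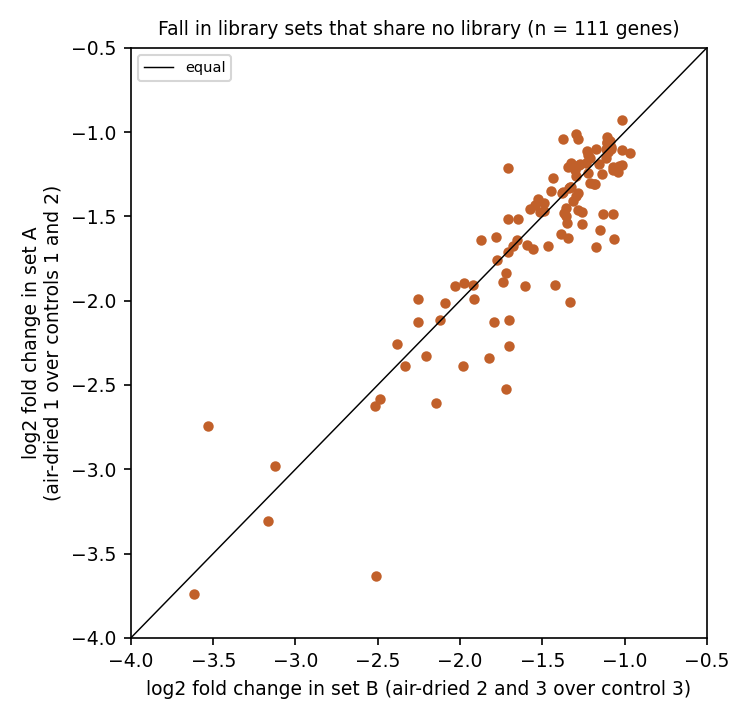
Log2 fold change of log2(FPKM + 1) within set A (air-dried 1 over controls 1 and 2, vertical) against that within set B (air-dried 2 and 3 over control 3, horizontal) for the 111 genes, 1 point per gene, with the line of equal change. Points follow the line from about -1 down to the gene at -3.74 and -3.62.

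Falling genes were compact and had few listed transcripts. Their median span was 2570 bp, against 3922 bp over the 12225 genes of the same span and level minimums, and they had a median of 2 transcripts, against 4. A single listed transcript was found in 44 of the 111 (39.6%), against 16.3% of the 12225. Among the 12181 genes above 0 in all libraries, the share that met the rule was 2.25% for genes with 1 transcript, 33 of 2193 genes with 2, 0.582% with 3, 0.693% with 4 and 0.263% with 5 or more. Comparing means instead gave the same direction, with 5.38% of the genes with 1 transcript and 0.834% of those with 5 or more at or below 50% of the control mean. The median coefficient of variation among controls was 9.90% for genes with 1 transcript and 7.85% for genes with 5 or more, and its part in these shares was not tested.

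By span, the share that met the rule was 1.48% at 300 to under 600 bp, 2.51% at 600 to under 1000 bp, 2.13% at 1000 to under 2000 bp, 1.10% at 2000 to under 4000 bp and 0.354% at 4000 bp or more. The class of 300 to under 600 bp had widely scattered values, with a median coefficient of variation among controls of 35.8%, and 11.3% of its genes were at or below 50% by means. Within span classes the order by transcripts was not the same throughout. At 300 to under 2000 bp, 2.47% of the genes with 1 transcript, 2.31% with 2 and 0 of 61 with 5 or more met the rule. At 2000 to under 4000 bp the shares were 2.27% with 1 transcript, 1.19% with 2 and 0.611% with 5 or more. At 4000 bp or more they were 0.621% with 1 transcript (1 of 161 genes), 1.29% with 2 and 0.171% with 5 or more. Level showed no such order. The shares were 1.02% at control means of 10 to under 20 FPKM, 0.903% at 20 to under 50, 0.623% at 50 to under 100 and 0.907% at 100 or more. These shares are descriptions of the chosen genes and were not tested.

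**Figure D5:**
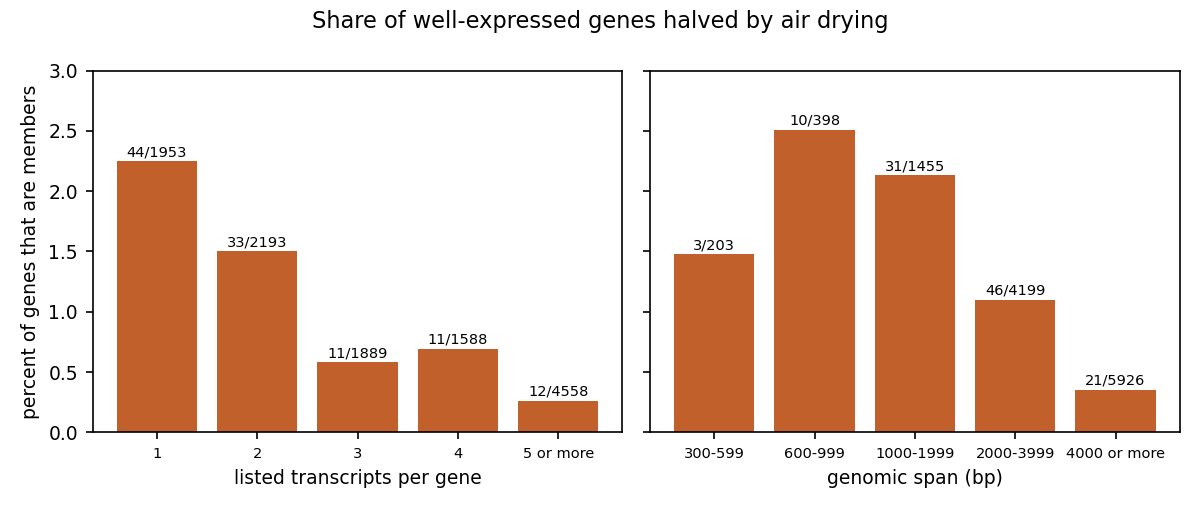
Percent of genes of the same span and level minimums, above 0 in all libraries, that belong to the 111 falling genes (vertical, from 0), by number of listed transcripts (left) and by genomic span in bp (right). Numbers over the bars give falling genes over all genes of the class; the share is 2.25% with 1 transcript and 0.263% with 5 or more.

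The 119 genes were spread over the genome. Numbered chromosomes held 116 and scaffolds 3. Chromosome 6 held 14, or 1.40% of its genes of the same span and level, chromosome 9 held 11 of 594 (1.85%) and chromosome 17 held 7 of 354 (1.98%). Among the 111 genes above 0, chromosome 6 held 12 (1.21%) and chromosome 17 held 6 (1.71%). Chromosome 11 held none of 371, while 6 of its genes were at or below 50% by means. The plus strand carried 69 of the 119 and the minus strand 50, and among the 111 these counts were 62 and 49. Of the 12225 genes 49.9% were on the plus strand. No test was made of these shares.

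Members lay side by side in 3 places. On chromosome 17 the gene at 2194330 to 2195017 (plus strand) had 5.73, 4.23 and 4.28 FPKM after drying and 15.5, 16.3 and 12.2 FPKM in controls. Its neighbour 3950 bp further on, at 2198968 to 2199890 on the same strand, had 13.8, 16.4 and 14.1 FPKM after drying and 59.1, 50.7 and 48.3 FPKM in controls. They kept 32.4% and 28.0% of their control means. On the other side of the first gene, a gene on the minus strand (2187761 to 2188519) had 29.2, 24.7 and 31.1 FPKM after drying and 21.6, 16.7 and 19.6 FPKM in controls, a rise of 0.53 on the log2 scale (SE 0.13, limma adjusted p = 0.04523). Falling and rising genes thus adjoined each other there.

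On chromosome 6 the adjacent genes were on the minus strand, 5490 bp apart. The gene at 11838983 to 11841735 had 11.03, 10.3 and 11.2 FPKM after drying and 24.7, 28.9 and 23.6 FPKM in controls, with 42.1% left. Its known transcript had a mean under 1 FPKM, so nearly all of that level came from other listed transcripts. The gene at 11847226 to 11848298 had 48.7, 52.3 and 42.1 FPKM after drying and 166, 151 and 131 FPKM in controls, with 32.0% left. On chromosome 3 the locus listed at 0 after drying overlaps a second member by 372 bp on the same strand (3507511 to 3511450). That member had 7.13, 7.94 and 8.81 FPKM after drying and 18.5, 18.6 and 22.0 FPKM in controls, with 40.5% left. Whether adjacent genes resemble each other in sequence, and so could share reads, was not tested.

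The genes next to the 119 were not used in choosing them. A neighbour was the nearest tested gene on each side, so genes too low to be tested were passed over. Among the neighbours called, the gap to the member reached 119276 bp. After leaving out other members and overlapping genes, 214 neighbours were tested, of which 25 (11.7%) were called lower in air-dried leaves and 8 (3.74%) higher, against 7.44% and 5.60% of all genes tested (limma, adjusted p under 0.05). Of the 25, 10 were on the strand of the member beside them, as were 96 of all 214 neighbours. The median log2 fold change of the neighbours was -0.042. The count of neighbours called lower was 14 without air-dried 1, 14 without air-dried 2, 17 without air-dried 3, 15 without control 1, 11 without control 2 and 16 without control 3. The count over all genes tested fell as well, from 1663 with all libraries to between 812 and 1130.

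Some neighbours, chosen after their values were seen, show both directions. On chromosome 3 a gene on the minus strand (15494841 to 15497302) had 1.08, 1.55 and 0.781 FPKM after drying and 7.95, 7.76 and 6.08 FPKM in controls, a log2 fold change of -1.96 (SE 0.17, limma adjusted p = 0.001396). The member 1882 bp away on the plus strand (15489879 to 15492958) had 4.88, 7.30 and 9.32 FPKM after drying and 20.1, 25.5 and 22.3 FPKM in controls. Both genes fell, on opposite strands. On chromosome 10 the neighbour of the member at 1830570 went the other way: the gene at 1810490 to 1811381, on the same strand, had 171, 270 and 239 FPKM after drying and 81.8, 78.7 and 123 FPKM in controls, a log2 fold change of 1.26 (SE 0.24, limma adjusted p = 0.0219). This neighbour lies 19188 bp from the member. On chromosome 3 the gene at 9489891 to 9494594 had 27.1, 22.7 and 27.2 FPKM after drying and 11.2, 12.5 and 13.3 FPKM in controls, and rose by 1.00 on the log2 scale (SE 0.10, limma adjusted p = 0.002666). It lies 3848 bp from the highly expressed falling gene at 9484860, on the same strand.

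Other listed genes overlapped 13 of the 111, and 5 of the 111 lay wholly inside another gene. Overlaps were not counted over all genes, so nothing is read from these counts. Among the 5 was the gene on chromosome 19 (416941 to 423727), inside a gene with under 1 FPKM in each library. Reads from both strands cannot be told apart unless the counting used strand, and the strand setting is not stated. A member of 451 bp without a known transcript on the minus strand of chromosome 4 (8548082 to 8548532) had 4.09, 0.942 and 6.87 FPKM after drying and 17.3, 18.6 and 14.4 FPKM in controls. The gene on the plus strand that encloses it (8546647 to 8549231) had 1.96, 1.92 and 1.94 FPKM after drying and 5.27, 5.11 and 5.20 FPKM in controls, a log2 fold change of -1.08 (SE 0.077, limma adjusted p = 0.000815). Both of these moved down, and their levels cannot be attributed to a strand. On chromosome 5 the gene that overlaps a member from the opposite strand (8244063 to 8247719) had 123, 83.0 and 70.3 FPKM after drying and 115, 132 and 72.1 FPKM in controls, which overlap widely. Genes that overlap members were also called lower on chromosomes 6, 13 and 17 (limma, adjusted p under 0.05). Their log2 fold changes were -0.93 at the member at 581805 and -1.23 at that at 14956650. On chromosome 17 they were -0.59 at the member at 6237665 and -0.63 at that at 13358880. Another gene around the member at 13358880 was not called, at -0.15. The gene around the member at 5806647 rose, as given above.

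The fall of single transcripts is described here without a test, since their sum chose the genes. The 67 members with at least 2 listed transcripts had 134 transcripts with a control mean of at least 1 FPKM, of which 121 (90.3%) kept at most 50% of their control mean. Among all 41159 transcripts of that level 11.1% did, and nothing is read from that difference, since the leading transcript makes up most of the sum used by the rule. Of the other 13 transcripts, 12 kept more than 50% but not more than their control mean, and 1 had a higher mean after drying. At least 2 such transcripts were found in 41 members, and in 30 of these every one was at or below 50%. The gene on chromosome 4 at 17726871 had 19 listed transcripts, of which 3 had a control mean of at least 1 FPKM, with 47.1%, 34.5% and 19.1% left. The last of these had 1.07, 31.0 and practically 0 FPKM in the air-dried libraries, although the gene sum was even across them.

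The transcript with the higher mean after drying belonged to a locus of 66275 bp on chromosome 17 (6237665 to 6303939), which joins 3 known accessions under 1 gene. It had 1.23, 3.50 and 0.894 FPKM after drying and 1.58, 0.493 and 2.35 FPKM in controls, so the groups overlapped. The summed locus had 36.3, 41.6 and 38.2 FPKM after drying and 95.1, 90.9 and 102 FPKM in controls. Of the 119 members 6 (5.04%) joined at least 2 known accessions, against 1346 (11.01%) of the 12225 genes.

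The share of a gene's level held by its leading transcript was not itself used by the rule, and it was tested. The leading transcript was the one with the highest mean over all 6 libraries. In the members that mean rests mostly on the controls, which can favour a lower share after drying. In limma on arcsine square root shares, 0 of 67 members and 0 of 16438 genes (0%) passed an adjusted p of 0.05. At an unadjusted p under 0.05 there were 2 members (2.99%) and 793 genes (4.82%). The lowest adjusted p was 0.742 among the members and 0.0665 among all genes. The median share of the leading transcript was 84.5% in air-dried leaves and 83.6% in controls. It moved by under 5 percentage points in 43 members and by over 10 in 9, with extremes of -37.7 and 13.3 points. By group means the leading transcript was another one after drying in 5 members. Such shifts were not counted over the 16438 genes, so nothing particular to the members is read from them. With a library left out, the number of genes called was 5 without air-dried 1, 5 without air-dried 2, 4 without air-dried 3, 5 without control 1, 0 without control 2 and 7 without control 3, none of them a member. The fit recovered only a minority of the share changes planted in simulated data, and a missed threshold does not show that shares were equal.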

How the data were processed

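Leaf RNA was read as 100 bp pairs from poly(A) libraries, per the labels' protocols. The submitters' processing notes name FastQC, TopHat and Cufflinks, without versions. The authors deposited FPKM per transcript, 112919 transcripts in each of 6 files, per the file headers. Coordinates are as deposited, since the genome build is not given in the sources used. The same holds for annotation and strand setting.

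Transcript FPKM were added up per gene without rescaling. Genes whose mean reached 1 FPKM were fitted with limma 3.58.1 in R 4.3.3 on log2(FPKM + 1), a scale that understates changes of low genes (two-sided, trend, Benjamini-Hochberg over 22356 genes). Shares were fitted likewise without trend. Both fits were tested on simulated data: the gene fit recovered most of the larger planted changes, fewer of the smaller ones, and the share fit only a minority. Spreads were shuffled across genes there regardless of level, so these recoveries need not hold for well-expressed genes. Tables and figures were made in Python 3.11.15. Reads per library are not given, so no counting interval is stated.

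Lists of genes by function were planned and could not be applied without names. Named were the 12 deepest falls, the 10 highest controls, 3 genes on each side of the limit and adjacent members. Restricting the first 2 lists to genes above 0 in all libraries, and the choice of 2 accessions (largest fitted fall, highest control mean), were settled after values were seen. Members and lists were chosen with earlier results of these data known.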

Additional observations from a re-analysis of the deposited data

How the results depend on the processing

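Alternatives to the rule and to the fits were planned except the restriction to FPKM above 0 in all libraries, which gave 111 genes. The rule gave 183 genes at a control mean of at least 5 FPKM, 69 at 20 FPKM and 274 when means were compared. Leaving out a library gave 122 to 152. The median log2 fold change of the genes was -1.72 with no span minimum and -1.19 when means were compared. Known transcripts alone gave 754 genes called lower by limma, when 84 genes met the rule, 76 of them among the 119. Genes called lower numbered 1102 without air-dried 1, 954 without air-dried 2, 1130 without air-dried 3, 965 without control 1, 812 without control 2 and 1105 without control 3, against 1663 with all libraries. With a library left out, neighbours called lower ranged from 11 to 17, and genes with a changed leading share from 0 to 7, with no member called for its share. The other settings run (pseudocounts, filters, rescaling, a set term, no trend) kept these counts within 1.5 times. Same-numbered libraries deviated from their group means with correlations of 0.187, -0.0961 and 0.292, and different-numbered ones with -0.345 to 0.160. These values do not settle whether the numbers mark pairs. Replicate numbers were not taken as pairs in the main fit. With the replicate block 1197 genes, 111 members and 17 neighbours were called lower and no leading share changed in limma. For the 28 named members the log2 fold change moved by more than the spread between replicates (1 SD) in 14 of 414 alternatives. Its sign was largely fixed by the choice of the genes. The number of reads is unknown, which gives no counting error for low values.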
